A study of Mus musculus with 6 samples.

Results

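The genes described here encode the phagocyte NADPH oxidase and the enzymes of the pentose phosphate pathway that supply it with NADPH. They are the oxidase subunit genes Cybb, Cyba, Ncf1, Ncf4 and Rac2 and the enzyme genes G6pdx, Pgd, Taldo1 and Tkt, chosen by name and matched by symbol, and all 9 were found among the 15483 genes of the tables. The libraries came from bone marrow regulatory T cells (Tregs) of wild-type mice, 3 libraries from mice 3 months after irradiation (IR) and 3 from control mice, and the sort took CD3+, CD4+, NK1.1-negative, Foxp3+ cells. Dose, age and strain are missing from the labels. Nothing in the labels ties a replicate to its own animal, so a p-value measures the spread between these libraries, which may be technical. Values are FPKM, which divide a gene's fragments by its transcript length and by the library's total, so levels of different genes can be set side by side.

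The oxidase moves electrons from NADPH across a membrane to oxygen and so makes superoxide. Cybb encodes the catalytic chain and Cyba its membrane partner, and together they form a flavocytochrome that is silent until cytosolic subunits, among them those from Ncf1 and Ncf4, and a Rac GTPase dock onto it. Neutrophils, monocytes and macrophages are among the cells known for this complex, and B cells carry it too. G6pdx and Pgd encode the dehydrogenases of the oxidative arm of the pentose phosphate pathway, each of which yields NADPH, while Taldo1 (transaldolase) and Tkt (transketolase) encode enzymes of the non-oxidative arm, which moves carbon between sugar phosphates.

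The libraries held transcripts of the labelled cell type and of other marrow cells. Foxp3, the defining Treg factor, stood at 12.6 ± 0.795 FPKM in IR libraries and at 22.6 ± 1.93 FPKM in control libraries (SD, n = 3 each). S100a8, a neutrophil gene, ranked first in mean level of all genes, at 39026 ± 427 FPKM in IR libraries and 25283 ± 1249 FPKM in control libraries. Markers are counted here by the limma test described below, which called 6.29% of all genes tested higher and 10.3% lower in IR libraries. Of 20 neutrophil markers 14 rose and 0 fell in IR libraries, and their summed level was 104139 to 107254 FPKM in IR libraries and 71990 to 77347 FPKM in control libraries. Of 16 monocyte and macrophage markers 0 rose and 14 fell, with a summed level of 1729 to 1797 FPKM in IR libraries and 2443 to 2608 FPKM in control libraries. Of 10 tested B lineage markers all 10 fell, to a summed level of 40.3 to 47.5 FPKM in IR libraries, against 119 to 126 FPKM in control libraries for the list of 11. Of 12 tested T cell markers all 12 fell, and 8 of 10 Treg markers, 7 of 9 eosinophil markers and 7 of 10 erythroid markers fell, while 0 of these rose. The list of 13 T cell markers summed to 291 to 302 FPKM in IR libraries and 485 to 509 FPKM in control libraries. The Treg list summed to 221 to 235 FPKM and 322 to 329 FPKM, in that order. The eosinophil list summed to 3541 to 3599 FPKM and 5435 to 6008 FPKM, and the erythroid list to 733 to 762 FPKM and 1087 to 1334 FPKM. None of the neutrophil, macrophage or Treg markers was at 0 in any library. The part of these cell types in the results was not tested, and in such libraries fewer cells of a type and less RNA per cell cannot be told apart. Relative depth, read from genes of low value, was 81.6% to 92.7% of control replicate 1 in IR libraries and 98.5% to 103% in control replicates 2 and 3, and the absolute depth is unknown.

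Of the 9 genes 5 rose in IR libraries, 0 fell and 4 did not pass the test, which was limma on log2(FPKM + 1) over 10666 genes at a Benjamini-Hochberg adjusted p under 0.05. Of all genes tested, 6.29% were called higher and 10.3% lower, 16.6% in all. The 9 genes were chosen with earlier results of these data known, so setting their counts beside these shares is not an independent test. The 5 that rose were Ncf1, Ncf4 and Cybb of the oxidase and G6pdx and Pgd, the dehydrogenases that yield NADPH. The median log2 change was 0.22 over the 9 genes and -0.02 over all genes tested. The changes ran from -0.01 to 0.66 over the 9 genes and from -0.12 to 0.70, with a median of 0.33, over the 20 neutrophil markers. All IR values lay above all control values for 7 of the 9 genes, against 13.5% of all genes tested, and below them for 0 of the 9, against 20.1%. The exceptions were Cyba and Taldo1.

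**Figure D1:**
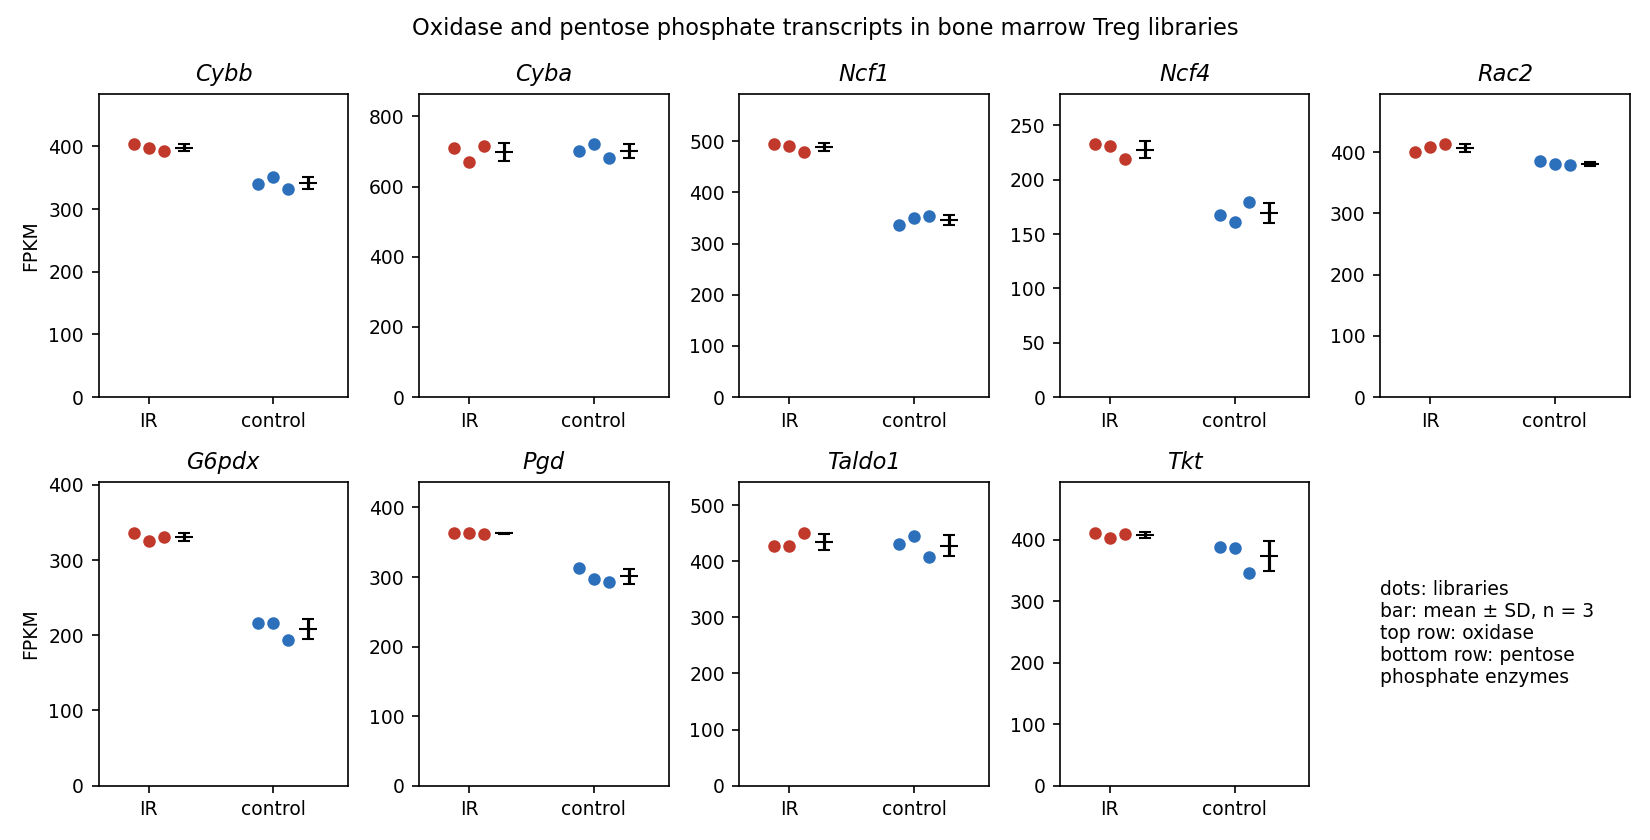
Level of each gene in FPKM (y axis, from 0) in the 3 IR libraries (red) and the 3 control libraries (blue), with the mean ± SD beside the dots. The dots of G6pdx, at 325 to 337 FPKM in IR libraries and 194 to 216 FPKM in control libraries, do not overlap, while those of Cyba and Taldo1 do.

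Promoter sequences are shown for 4 of the genes, because Ncf1 and Cybb, which rose, can be set beside Cyba, which did not pass, and because G6pdx had the largest change of the 9. The RefSeq table (build GRCm38.p6) held 8 promoters for 7 of the 9 genes, and Ncf4 and Rac2 were not matched. Each line gives the 150 bases before the annotated start, 5′ to 3′ on the gene's strand, which is the minus strand for all 4. They lie at chr5:134229626-134229775 for Ncf1, chrX:9469325-9469474 for Cybb, chr8:122432941-122433090 for Cyba and chrX:74428881-74429030 for G6pdx. Capitals mark matches, on either strand, to the motifs searched, which were GAGGAA (PU.1 type), TTGCNNAA (C/EBP type), GAAA followed after any 2 bases by GAAA (interferon response element type), TGACNNNGC (antioxidant response element type), CACGTG (E-box) and CCAAT.
Ncf1: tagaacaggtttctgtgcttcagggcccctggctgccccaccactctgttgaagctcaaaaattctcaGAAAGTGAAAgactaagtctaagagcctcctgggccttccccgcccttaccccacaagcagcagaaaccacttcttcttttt
Cybb: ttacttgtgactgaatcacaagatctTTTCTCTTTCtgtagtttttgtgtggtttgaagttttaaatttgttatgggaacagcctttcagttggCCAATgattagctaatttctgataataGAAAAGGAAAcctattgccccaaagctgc
Cyba: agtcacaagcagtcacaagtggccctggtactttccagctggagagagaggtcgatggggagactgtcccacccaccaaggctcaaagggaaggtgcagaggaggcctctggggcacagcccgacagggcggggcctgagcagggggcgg
G6pdx: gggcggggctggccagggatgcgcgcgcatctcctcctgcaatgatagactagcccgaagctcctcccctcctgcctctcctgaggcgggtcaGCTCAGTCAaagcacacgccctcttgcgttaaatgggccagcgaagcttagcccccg

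Within the whole window of 250 bases before to 50 after the start, the interferon response element letters were found in the promoters of Ncf1 (1 match) and Cybb (3 matches), and 3.44% of all 32851 promoters of that length hold them. The antioxidant response element letters were found in the G6pdx promoter, 57 to 49 bases before the start on the opposite strand, and in the downstream of the 2 Pgd promoters, and 12.4% of all promoters hold them. CCAAT was found in Cybb, in the upstream Pgd promoter, where it occurred on each strand, and in Taldo1, and 37.4% of all promoters hold it. The PU.1 type letters occurred once, in Cybb after the start (28.3% of all promoters), and the C/EBP type (10.8%) and E-box (7.15%) letters in none of the 8. No listed motif was found in the windows of Cyba and Tkt. These matches describe letters only. The windows of Cybb, G6pdx, Tkt and the downstream Pgd promoter lie wholly inside the gene spans given below, which are from GENCODE M21. These spans reach farther upstream than the annotated starts used here. For Cybb and the downstream Pgd promoter the RefSeq gene span does so too.

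Of the membrane chains of the oxidase, Cybb passed the test and Cyba did not. Cybb, the catalytic chain (chromosome X, 9435252 to 9487771, GENCODE M21 on GRCm38), had 404, 398 and 393 FPKM in IR libraries, against 340, 351 and 333 FPKM in control libraries. All 3 IR values lay above all 3 control values. Cybb rose by 0.22 ± 0.04 on the log2(FPKM + 1) scale (SE, limma adjusted p = 0.00411), and with a variance prior without a trend it did not pass (adjusted p = 0.0801). Cyba, its partner chain (chromosome 8, 122424776 to 122432930), had 710, 671 and 717 FPKM in IR libraries and 702, 721 and 682 FPKM in control libraries. The groups overlapped, the log2 change was -0.01 ± 0.04 (adjusted p = 0.951), and its 95% interval ran from -0.10 to 0.09. Cyba was the most abundant of the 9 transcripts in both groups, with a rank between 84 and 89 of all genes in every library.

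The ratio of Cybb to Cyba was 0.569, 0.594 and 0.548 in IR libraries and 0.485, 0.487 and 0.487 in control libraries. The ratios did not overlap, and their log2 difference was 0.23. The two-sided exact permutation p was 0.1, the smallest that 3 libraries against 3 allow, and 0.125 after adjustment over the 5 ratios compared.

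The cytosolic organiser and its companion had the largest rises among the oxidase genes. Ncf1, the organising subunit that carries the complex to the membrane (chromosome 5, 134220053 to 134229625), had 494, 491 and 479 FPKM in IR libraries, against 335, 350 and 353 FPKM in control libraries. The lowest IR value was well above the highest control value, and Ncf1 rose by 0.49 ± 0.04 (limma adjusted p = 1.41e-05). Ncf4, a subunit that binds a membrane phosphoinositide (chromosome 15, 78244801 to 78262580), had 233, 231 and 219 FPKM in IR libraries and 168, 162 and 180 FPKM in control libraries. It was the least abundant of the 9 transcripts in both groups and rose by 0.42 ± 0.05 (limma adjusted p = 0.000233). The ratio of Ncf4 to Ncf1 was 0.467 ± 0.00768 in IR libraries and 0.490 ± 0.0251 in control libraries (SD, n = 3 each), and these ratios overlapped (log2 difference -0.07, two-sided exact permutation p = 0.3, adjusted p = 0.3).

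Rac2, the GTPase of blood cells that switches the complex on (chromosome 15, 78559167 to 78572783), lies 297 kb from Ncf4. It had 399, 408 and 413 FPKM in IR libraries and 385, 381 and 378 FPKM in control libraries. The groups did not overlap, but the log2 change of 0.09 ± 0.04 did not pass (limma adjusted p = 0.149), and its 95% interval was 0.00 to 0.18. The summed level of the 5 oxidase genes was 2220 ± 20.2 FPKM in IR libraries and 1940 ± 21.3 FPKM in control libraries (SD, n = 3 each).

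**Figure D2:**
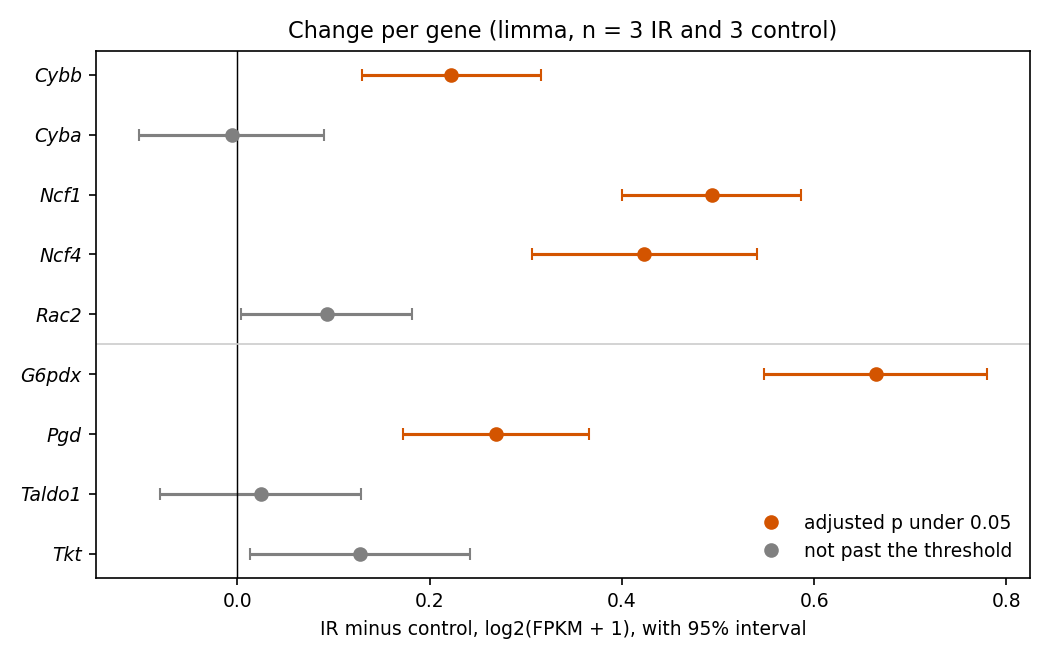
Change of each gene, IR minus control on the log2(FPKM + 1) scale (x axis), with the 95% interval of the limma fit, oxidase genes above the line and pentose phosphate genes below it. The 5 genes in orange passed an adjusted p of 0.05, from 0.22 for Cybb to 0.66 for G6pdx, and the intervals of Cyba and Taldo1 span 0.

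In the pentose phosphate pathway the NADPH-yielding dehydrogenases rose and the non-oxidative enzymes did not pass the test. Pgd was not set against Tkt or Taldo1, and the 95% intervals of Pgd (0.17 to 0.37) and Tkt (0.01 to 0.24) overlapped. G6pdx, the X-linked glucose-6-phosphate dehydrogenase that commits glucose to the pathway (chromosome X, 74409483 to 74429194), had 337, 325 and 330 FPKM in IR libraries, against 216, 216 and 194 FPKM in control libraries. The groups were far apart. G6pdx rose by 0.66 ± 0.05 (limma adjusted p = 8.09e-06), a mean level 1.59 times that of control libraries. Pgd, the 6-phosphogluconate dehydrogenase that acts after it in the same arm (chromosome 4, 149149991 to 149166771), had 363, 364 and 362 FPKM in IR libraries and 313, 296 and 293 FPKM in control libraries. Pgd rose by 0.27 ± 0.04 (limma adjusted p = 0.00154), with no overlap.

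Taldo1 (chromosome 7, 141392199 to 141402968) had 427, 426 and 451 FPKM in IR libraries and 431, 445 and 408 FPKM in control libraries. The groups overlapped, and the log2 change of 0.02 ± 0.05 did not pass (limma adjusted p = 0.787, 95% interval -0.08 to 0.13). Tkt (chromosome 14, 30548359 to 30574720) had 412, 403 and 409 FPKM in IR libraries and 389, 387 and 346 FPKM in control libraries. Control replicate 3 was the lowest Tkt value, and the log2 change of 0.13 ± 0.05 did not pass (limma adjusted p = 0.125, 95% interval 0.01 to 0.24), although the groups did not overlap. Without control replicate 3 the Tkt change was 0.07 (adjusted p = 0.168). The summed level of the 4 enzymes was 1536 ± 17.2 FPKM in IR libraries and 1311 ± 62.0 FPKM in control libraries (SD, n = 3 each).

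Set against Pgd and against Tkt of the non-oxidative arm, G6pdx stood higher in every IR library than in any control library. The ratio of G6pdx to Pgd was 0.927, 0.894 and 0.913 in IR libraries and 0.690, 0.729 and 0.661 in control libraries. The ratio of G6pdx to Tkt was 0.817, 0.808 and 0.807 in IR libraries and 0.556, 0.558 and 0.560 in control libraries, so it varied little within a group. The ratio of Taldo1 to Tkt was 1.07 ± 0.0330 in IR libraries and 1.15 ± 0.0358 in control libraries (SD, n = 3 each). The log2 differences were 0.39, 0.54 and -0.10, the ratios did not overlap, and each had a two-sided exact permutation p of 0.1 and an adjusted p of 0.125.

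**Figure D3:**
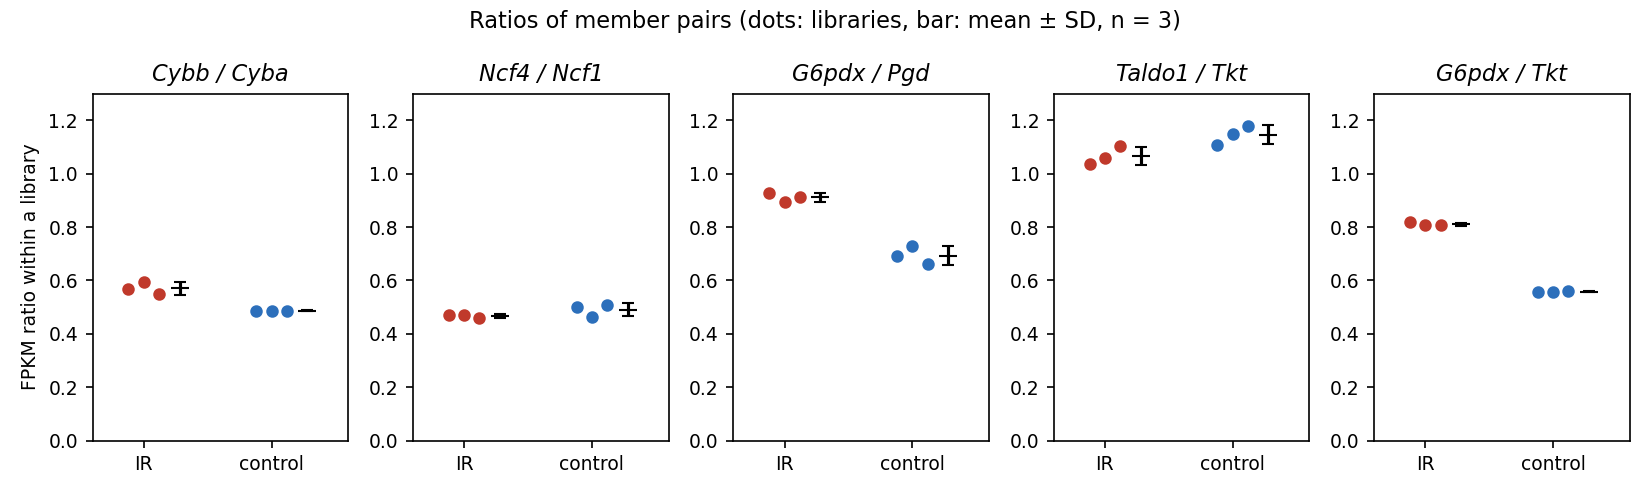
Ratio of 2 genes' FPKM within each library (y axis, from 0) for 5 pairs, IR libraries in red and control libraries in blue, with the mean ± SD. G6pdx to Tkt stood at 0.807 to 0.817 in IR libraries and at 0.556 to 0.560 in control libraries, while the Ncf4 to Ncf1 ratios overlapped.

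The order of levels differed between groups. In IR libraries it ran from Cyba through Ncf1, Taldo1, Tkt, Rac2, Cybb, Pgd and G6pdx to Ncf4, and Tkt, Rac2 and Cybb were neighbours whose values overlapped. In control libraries it ran from Cyba through Taldo1, Rac2, Tkt, Ncf1, Cybb, Pgd and G6pdx to Ncf4, and from Rac2 to Cybb each gene's values overlapped those of the next. Ncf1 thus held place 2 in IR libraries and place 5 in control libraries. The SD of a gene was 0.295% to 3.57% of its mean in IR libraries and 0.859% to 6.55% in control libraries.

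In GENCODE M21, 4 of the 9 genes overlap another gene. G6pdx overlaps Ikbkg on the opposite strand over 19712 bases, and Ikbkg was at 5.44 to 6.48 FPKM. Ncf1 overlaps Gtf2ird2 on the opposite strand over 4303 bases, and Gtf2ird2 was at 1.97 to 3.41 FPKM. Cyba overlaps the model Gm20388 on the opposite strand over 8155 bases and Tkt holds a miRNA gene, and these 2 were not analysed here. Whether the authors' quantification used strand is not stated. G6pd2, an autosomal copy of G6pdx, was listed at 0 in 5 libraries and at 0.0706 FPKM in control replicate 1.

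Other genes of the oxidase were read beside the share of all genes tested that was called, 16.6%. Of 12 further subunits and paralogues 6 were in the tables and 3 were tested, of which 0 rose and 1 fell, with a median log2 change of -0.13. Cybc1, a chaperone of the flavocytochrome, had 40.5, 43.7 and 44.5 FPKM in IR libraries and 55.6, 52.9 and 51.9 FPKM in control libraries. It fell by 0.31 ± 0.06 (limma adjusted p = 0.00669), opposite in direction to Cybb. Rac1, the paralogue of Rac2 that most cells use, had a log2 change of -0.13 ± 0.05 that did not pass (adjusted p = 0.0813), and it passed without control replicate 3 (adjusted p = 0.0420) and with quantile normalization (-0.17, adjusted p = 0.0108). Noxo1, an organiser related to Ncf1, was near 1 FPKM in both groups (1.08 ± 0.328 FPKM in IR libraries and 0.927 ± 0.2997 FPKM in control libraries).

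Of 22 genes of oxidase assembly and activation, all tested, 3 rose and 2 fell, with a median of -0.07, beside the same background of 16.6% called. Itgam, the integrin alpha chain of the complement receptor of myeloid cells, rose by 0.42 ± 0.05 (limma adjusted p = 0.000120). It stood at 264 ± 3.14 FPKM in IR libraries and 197 ± 9.61 FPKM in control libraries (SD, n = 3 each). Fgr, a Src family kinase of myeloid cells, rose by 0.35 ± 0.06, and Arhgdib, which holds Rac GTPases in the cytosol of blood cells, by 0.21 ± 0.04. Prex1, a Rac exchange factor, fell by 0.27 ± 0.06, and Prkca was the other gene that fell. The Arhgdib call was lost without the trend (adjusted p = 0.116). Neutrophil markers rose in the same libraries as Itgam, Fgr and Arhgdib, while Prex1 and Prkca fell in them. The part of any cell type in these changes was not tested.

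Beside the same background of 16.6%, the rest of the pentose phosphate list gave no call. Of 12 other pentose phosphate genes 11 were in the tables and 10 were tested, and 0 rose and 0 fell by limma at an adjusted p under 0.05, while 2 had an unadjusted p under 0.05. These 2 were Rbks, the ribokinase gene, with a log2 change of 0.44 ± 0.15 (adjusted p = 0.0719), and Prps2, which makes phosphoribosyl pyrophosphate, at -0.31 ± 0.14 (adjusted p = 0.168). Rbks passed without control replicate 1 (0.59 ± 0.14, adjusted p = 0.0268) and with the replicate number as a block (adjusted p = 0.0443). Dera, a deoxyribose phosphate aldolase gene, was at -0.26 ± 0.12, and passed without control replicate 3 (-0.39, adjusted p = 0.0312). Without control replicate 2 Dera was at -0.16 (adjusted p = 0.497) and Prps2 at -0.19 (adjusted p = 0.5004). H6pd, the dehydrogenase of the endoplasmic reticulum that resembles the G6pdx product, was at 0.16 ± 0.10 (adjusted p = 0.319).

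Of 13 other genes listed under NADPH supply 9 were tested, 0 rose and 1 fell, with a median of -0.07, beside the same background of 16.6% called. Whether each product yields NADPH in these cells was not tested. Nnt, the mitochondrial transhydrogenase, fell to 17.0 ± 1.43 FPKM in IR libraries, against 22.1 ± 1.32 FPKM in control libraries (SD, n = 3 each), a log2 change of -0.37 ± 0.09 (limma adjusted p = 0.0156). The Nnt call ended in 3 of the 6 fits on 5 libraries, those without IR replicate 2, control replicate 2 or control replicate 3, with adjusted p as high as 0.0636. Idh1, the cytosolic isocitrate dehydrogenase, was at -0.17 ± 0.06 (adjusted p = 0.0959), the malic enzyme gene Me2 at -0.17 ± 0.08 (adjusted p = 0.187) and the folate enzyme gene Mthfd2 at -0.08 ± 0.10 (adjusted p = 0.644).

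Of 20 genes that handle superoxide and peroxide, all tested, 4 rose and 3 fell, with a median of 0.03, beside the same background of 16.6% called. Gsr, the NADPH-dependent glutathione reductase, rose by 0.45 ± 0.04 (limma adjusted p = 4.26e-05), at 286 ± 1.96 FPKM in IR libraries and 210 ± 6.75 FPKM in control libraries (SD, n = 3 each). Txn1, the thioredoxin gene, rose by 0.32 ± 0.04, and Gclm and Prdx5 rose too. Cat, which encodes catalase, fell to 28.6 ± 2.30 FPKM in IR libraries, against 41.6 ± 0.618 FPKM in control libraries, a log2 change of -0.53 ± 0.07. Hmox1, a haem oxygenase gene, changed by -0.85 ± 0.06, and Prdx1 fell as well. Markers of macrophages and of several other cell types fell in the same libraries, and their part in these changes was not tested.

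**Figure D4:**
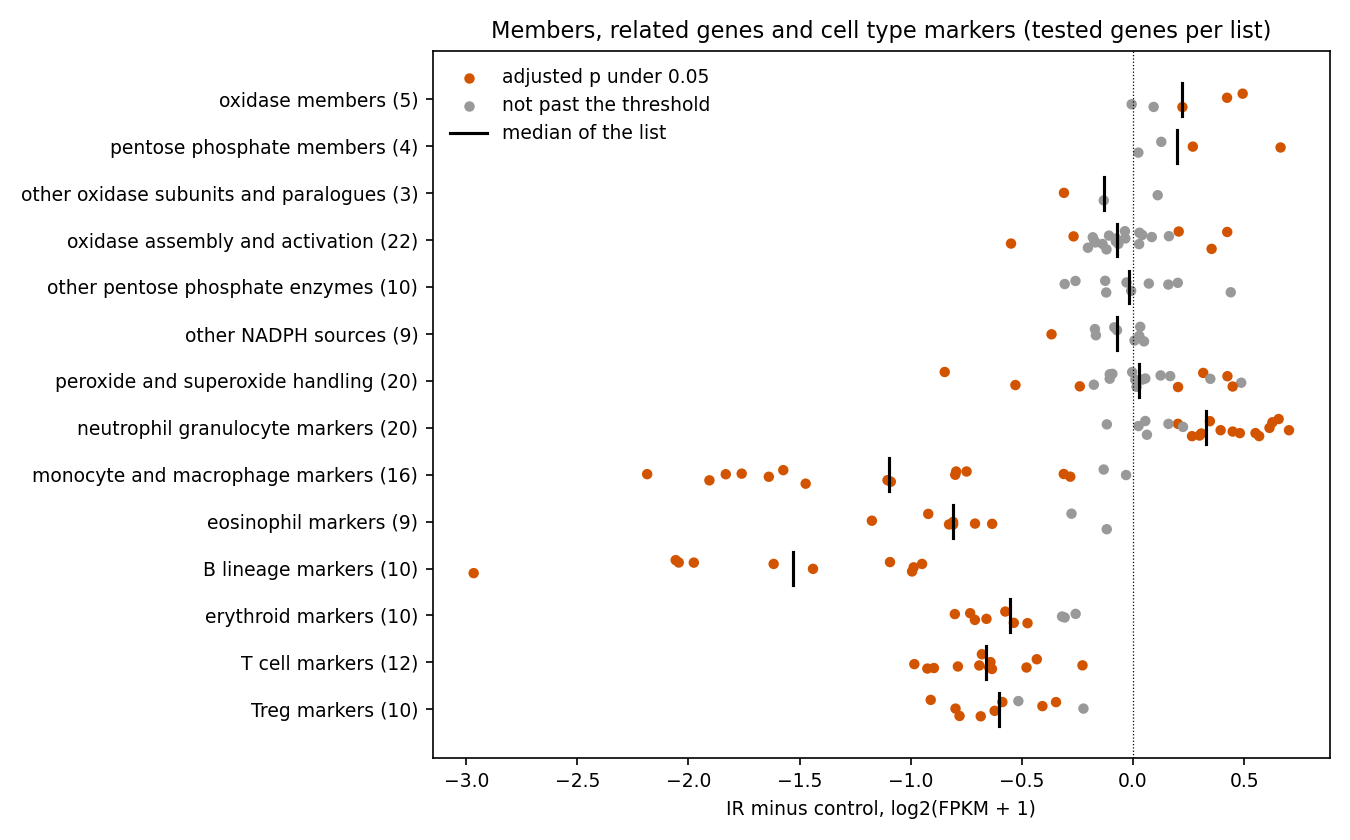
Change of every tested gene, IR minus control on the log2(FPKM + 1) scale (x axis), by list, with the number of genes tested in brackets, genes past an adjusted p of 0.05 in orange and the median as a bar. The oxidase and pentose phosphate genes have medians of 0.22 and 0.20, neutrophil markers 0.33, and monocyte and macrophage markers -1.10.

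Among 7883 other tested genes that averaged 5 FPKM or more, those with the profile most like the mean of the 5 oxidase genes over the 6 libraries were Flna, Timm10b and Hmgb2. Likeness was the root mean square distance between log2(FPKM + 1) profiles centred on their means, which was 0.0155, 0.0157 and 0.0175, against a median of 0.178. Their log2 changes were 0.27, 0.23 and 0.24. Genes whose replicates vary little come near by having a like change between groups, and shared regulation or cell origin was not tested. Flna stood at 432 ± 4.46 FPKM in IR libraries and 358 ± 1.49 FPKM in control libraries. Cybb was the oxidase gene nearest to that mean (0.0259) and Cyba the farthest (0.131). For the mean of the 4 pentose phosphate genes the nearest were Ngp (0.0192), a granule protein gene among the neutrophil markers above, Cd24a (0.0203) and Pkm (0.0248), against a median of 0.195. Pgd lay nearest to that mean (0.0314) and G6pdx farthest (0.197). G6pdx was thus farther from it than the median of the other genes, so that mean does not describe G6pdx.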

How the data were processed

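The deposited tables hold one value for each gene, read as FPKM because column totals differ between libraries and the sum of value times exonic length is nearly constant. The tools were fastp, HISAT2 and StringTie, on GRCm38 or mm10, per the submitters' processing notes, which state no versions. The kit was a stranded mRNA kit, per the labels' protocols. Libraries were grouped by title. Genes that averaged 1 FPKM or more were compared with limma (version 3.58.1, R 4.3.3) on the log2(FPKM + 1) scale (eBayes with a trend, two-sided, Benjamini-Hochberg over all 10666 genes). This scale understates changes of low genes. The fit was tested on simulated data, over genes of all levels. It missed more changes than it recovered at the smallest size tried and at the next size. A gene that did not pass may still have changed. The simulated result is an average over all genes tested and does not give the rate for Cyba, Taldo1, Rac2 or Tkt. For these genes the 95% intervals given above show the range of change that the fit allows. Ratios were tested by exact permutation (scipy 1.17.1). Relative depth is the commonest ratio between libraries of genes below 0.3 FPKM.

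The 9 genes and all lists were chosen with earlier results of these data known. Named beyond the 9 were the 4 genes of lowest p per related list, Rac1, and the 3 nearest profiles per pathway. Other genes named as called (Prkca, Gclm, Prdx1 and Prdx5), Ikbkg, Gtf2ird2, Gm20388 and G6pd2 were named after their values were seen. Alternatives were a pseudocount of 0.1, other filters, median-of-ratios and quantile scaling, array weights, no trend, the replicate number as a block, and each library omitted in turn. One related gene is not reported here and was left out of its list.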

Additional observations from a re-analysis of the deposited data

How the results depend on the processing

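The calls of Ncf1, Ncf4, G6pdx and Pgd kept their direction and their side of the threshold under all 9 alternative fits and all 6 fits that left out a library. Without the trend Cybb did not pass (0.22, adjusted p = 0.0801). With quantile normalization Rac2 (0.13, adjusted p = 0.0173), Tkt (0.17, adjusted p = 0.00278) and Rac1 (-0.17, adjusted p = 0.0108) passed, and the causes were not tested. Cyba, near 0, turned to 0.03 with median-of-ratios scaling (0.0279) and with quantile normalization (0.0302), and ran from -0.0260 to 0.0237 when a library was left out. Over the same fits Taldo1 ran from -0.0102 to 0.0526, Tkt from 0.0721 to 0.157, Noxo1 from -0.0232 to 0.209 and Mthfd2 from -0.161 to 0.0342.

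Leaving out a library gave 414 to 684 genes higher and 722 to 978 lower, with both lowest counts without control replicate 2, against 671 and 1100 over all libraries, and 5 of the 9 genes higher each time. With an unadjusted p under 0.05 and a log2 change of at least 1, 40 genes were higher, 172 lower, and 0 of the 9 genes passed in either direction. The profile genes Timm10b, Hmgb2 and Pkm lost their calls without the trend (adjusted p = 0.0655, 0.0642 and 0.0905), Timm10b also in all 6 fits on 5 libraries (highest adjusted p = 0.101) and with the block (adjusted p = 0.0739), and Ngp, among the highest values, has no change under quantile normalization.

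Same-numbered libraries did not deviate together (r = 0.0111, -0.0423 and -0.0228), so the numbers were used as names. With the replicate block 558 genes were higher and 948 lower, and 5 of the 9 genes rose, with adjusted p from 0.000119 for G6pdx to 0.0167 for Cybb. The IR libraries were the shallower ones, which limits low genes such as Noxo1 most.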
